A study of Mus musculus with 6 samples.

Results

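Expression of 10 genes that are widely used to mark astrocytes was followed on Affymetrix arrays of mouse cortex: Gfap, Aqp4, Mlc1, Slc1a2, Slc1a3, Glul, Aldoc, Aldh1l1, Apoe and Clu. Their members are the probe sets whose single platform gene symbol is one of these 10 names, which gave 29 of 45101 probe sets for 10 of the 18194 genes named in this way. One further probe set names Slc1a2 together with another gene and was left out. The study compared mRNA bound to tagged ribosomes of S100a10-expressing cells with RNA of whole cortex. The TRAP group held 3 samples of RNA that came down with the tagged ribosomes by translating ribosome affinity purification. The unbound group held 3 samples of whole cortex RNA, called input in the titles and unbound or flow-through in the descriptions and the series text. All 6 samples came from cortex of the same transgenic line, ES691, with S100a10 as the driver, backcrossed for several generations from FVB onto C57BL/6 and left untreated. Age, sex and animals per sample are not stated in the labels.

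The line limits what the TRAP values stand for, because the series text states that the S100a10 transgene also labels some non-neuronal cells. It recommends a published list of probe sets, which was not used here, so the TRAP values cover every labelled cell. Unbound RNA is whole cortex, in which each resident cell type takes part. The series text calls the replicates independent, without the number of animals behind each, and a p-value here reflects how far the 3 samples of a group scatter. In these bulk samples, fewer cells of a type and less RNA per cell cannot be told apart. Only the TRAP group was selected for ribosome binding, so the part of that binding in a difference cannot be told apart either. How much RNA of unlabelled cells came down with the tagged ribosomes was not measured.

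Astrocytes are the star-shaped glial cells that take up synaptic glutamate, return it to neurons as glutamine, buffer potassium and water at the endfeet that wrap blood vessels, and secrete lipoprotein particles. Gfap encodes the glial intermediate filament protein, Aqp4 and Mlc1 encode membrane proteins of the endfeet, Slc1a2 and Slc1a3 the glutamate transporters GLT-1 and GLAST, and Glul glutamine synthetase. Aldoc and Aldh1l1 encode metabolic enzymes, and Apoe and Clu encode the apolipoproteins E and J. Several of these genes are also used outside astrocytes. Apoe is expressed by macrophages and other cells, Clu by choroid plexus epithelium and ependyma, and Glul by oligodendrocytes among others.

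Windows before the start of transcription are shown for 4 members, 3 that fell in TRAP RNA and 1 that rose. Whether these sequences bear on the differences between TRAP and unbound RNA was not tested. Each window is the 250 bases before the RefSeq start in GRCm38.p6, 5′ to 3′ on the strand of the gene. Capitals mark the half-site TTGGC of nuclear factor I, a family of regulators of astrocyte genes, searched on both strands, where it reads GCCAA on the other strand.
Gfap, chr11:102897201-102897450, minus strand: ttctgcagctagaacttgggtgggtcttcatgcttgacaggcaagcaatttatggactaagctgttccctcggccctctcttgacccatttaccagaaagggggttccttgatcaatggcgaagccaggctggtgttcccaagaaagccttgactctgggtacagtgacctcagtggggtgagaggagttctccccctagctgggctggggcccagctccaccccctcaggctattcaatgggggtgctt
Mlc1, chr15:88978554-88978803, minus strand: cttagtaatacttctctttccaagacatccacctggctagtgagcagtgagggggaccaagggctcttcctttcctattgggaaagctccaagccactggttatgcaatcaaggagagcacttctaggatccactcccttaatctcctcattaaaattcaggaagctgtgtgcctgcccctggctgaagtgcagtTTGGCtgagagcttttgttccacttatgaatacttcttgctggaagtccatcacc
Slc1a2, chr2:102706188-102706437, plus strand: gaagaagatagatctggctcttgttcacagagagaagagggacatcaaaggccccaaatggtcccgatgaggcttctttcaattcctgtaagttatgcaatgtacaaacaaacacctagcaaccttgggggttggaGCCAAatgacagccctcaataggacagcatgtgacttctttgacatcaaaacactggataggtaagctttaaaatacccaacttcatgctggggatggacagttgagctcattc
Aldh1l1, chr6:90550543-90550792, plus strand: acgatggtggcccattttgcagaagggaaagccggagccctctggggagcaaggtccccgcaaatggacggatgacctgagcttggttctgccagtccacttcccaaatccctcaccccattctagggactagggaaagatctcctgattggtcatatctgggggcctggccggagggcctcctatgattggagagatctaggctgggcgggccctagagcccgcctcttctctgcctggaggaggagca
Sequence was found in the RefSeq table for 8 of the 10 genes, of which 6 have a single start, and 3 of those 6 windows held the half-site. Of all 32851 windows of this length, 41.5% held it. The half-site was found in the windows of Mlc1 and Slc1a2 and not in those of Gfap and Aldh1l1.

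Every tested probe set of Gfap, Aqp4, Mlc1 and Aldoc was lower in TRAP RNA, as were 2 of 3 tested probe sets each of Slc1a2 and Slc1a3. Aldh1l1 was higher, and Glul had 1 probe set lower and 1 higher. Neither Apoe nor any probe set of Clu was called in the fit by group alone. A probe set was tested where at least 1 group mean reached an intensity of 50, a level taken from the series text, and 22 of the 29 passed. That text can also be read as asking for 50 in both groups, for which values follow. Of these 22, 13 were lower and 2 higher at a limma adjusted p below 0.05, and 7 were not called. Over all 22591 tested probe sets, 47.7% were lower and 20.6% higher, so in the deposited scaling the share of lower calls was not far from that of the array. Of the 22 members, 12 were called and at least 2-fold lower, against 16.6% of all tested probe sets. None was called and 2-fold higher, against 6.17% of all. The groups did not overlap and TRAP was lower for 15 of the 22 (51.8% of all), TRAP was higher for 2 (23.2% of all), and 5 overlapped. Of the 22, 5 passed the level through their unbound mean alone and had to differ to be tested. Among the 17 with both means at 50 or more, 8 were lower and 2 higher in a fit to such probe sets, where 44.2% and 19.2% of all were. In that group 7 members were called and at least 2-fold lower, against 11.5% of all.

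The median log2 difference, TRAP minus unbound, was -1.45 over the 22 members and -0.25 over all tested probe sets. Counted by gene, with the probe set of highest mean standing for each, 6 genes were lower, 1 was higher and 3 were not called. The 6 are Gfap, Aqp4, Mlc1, Slc1a2, Aldoc and Glul, the higher one is Aldh1l1, and the 3 without a call are Slc1a3, Apoe and Clu. Over 12070 genes represented in the same way, 45.6% were lower and 23.2% higher. These calls come from a fit without the replicate number. With that number as a block, Slc1a3 and Clu were lower by their probe sets of highest mean and Glul was not called. Centring each array on its median moved the median difference of all tested probe sets to 0.18, with 25.5% of them then lower and 43.8% higher. In that scaling 12 of the 22 members were lower and 3 higher. A small difference therefore has no fixed direction, and the probe set of highest mean of Glul rose in that scaling.

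**Figure D1:**
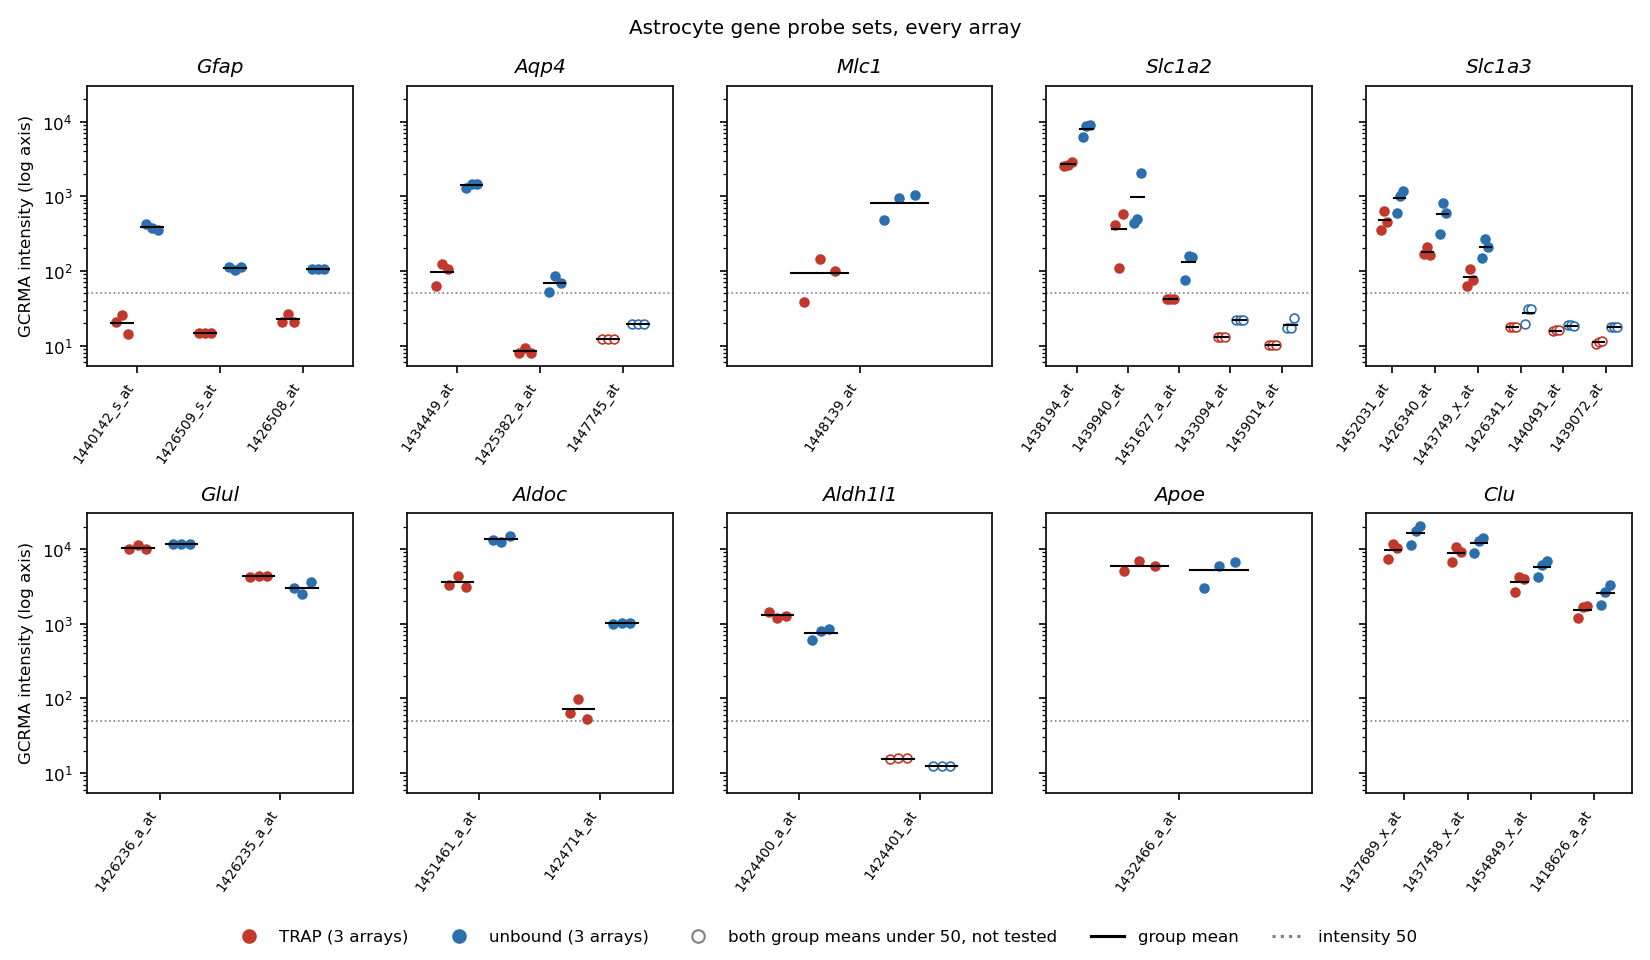
Intensity on a log axis for each probe set of the 10 astrocyte genes on the 3 TRAP arrays (left, red) and the 3 unbound arrays (right, blue), with black lines at group means and a dotted line at an intensity of 50. Open points are the 7 probe sets with both means under 50. The groups of Gfap, Aqp4, Mlc1 and Aldoc stand apart, whereas those of Apoe overlap.

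Some facts of the arrays bear on these values. Median intensity over all probe sets lay between 31.4 and 31.8 on the TRAP arrays and between 42.4 and 43.1 on the unbound arrays. S100a10, the driver gene, was 5.86-fold higher in TRAP RNA by its brightest probe set (adjusted p = 8.4e-05). Between 17.9% and 21.6% of tested probe sets held exactly the same value on a pair of arrays of 1 group, and 0% did on a pair from different groups. Among the members 6 of the 22 tested probe sets, and all 7 that were not tested, held such a repeated value. Where values repeat, the spread between arrays understates the error, and so do the p-values of those probe sets.

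Gfap, whose intermediate filament protein fills the main processes of fibrous and reactive astrocytes, fell in TRAP RNA by all 3 of its probe sets. The brightest, 1440142_s_at, measured 20.5, 25.5 and 14.3 in TRAP RNA and 427, 375 and 351 in unbound RNA. The highest TRAP array lay far below the lowest unbound array. The log2 difference was -4.29 (SE 0.23, adjusted p = 6.6e-05), a 19.6-fold lower value, and 0.465% of all tested probe sets had a more negative difference. Because each TRAP value was under 50, the fold rests on a level near background, and it was 7.66-fold with values under 50 raised to 50.

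The other Gfap probe sets were dimmer and moved the same way. The probe set 1426509_s_at measured 14.5, 14.6 and 14.6 in TRAP RNA and 114, 102 and 114 in unbound RNA (log2 -2.92, SE 0.05, adjusted p = 1.8e-06). The probe set 1426508_at measured 20.7, 26.2 and 20.7 against 105.0 on every unbound array (log2 -2.23, SE 0.10, adjusted p = 3.9e-05). The unbound SD of this last probe set was 0, so its p-value rests on the spread of the TRAP arrays. The TRAP values of all 3 Gfap probe sets lie under 50, so their folds are not firm. These probe sets were tested only because of their unbound level and had to differ, and so were 1425382_a_at of Aqp4 and 1451627_a_at of Slc1a2.

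Aqp4, the water channel concentrated in endfoot membranes, also fell strongly. Its probe set 1434449_at measured 62.7, 122 and 105 in TRAP RNA and 1300.0, 1463 and 1437 in unbound RNA. All 6 values were above 50 and the groups did not overlap. The log2 difference was -3.91 (SE 0.27, adjusted p = 1.6e-04), a 15.0-fold lower value. TRAP replicate 1 was the lowest of the 6 arrays, and without it the log2 difference was -3.63.

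The second tested Aqp4 probe set, 1425382_a_at, lay close to background. It measured 7.96, 9.40 and 7.96 in TRAP RNA and 52.7, 85.7 and 69.2 in unbound RNA (log2 -3.01, SE 0.20, adjusted p = 1.3e-04). Raised to 50, its values differed by 1.36-fold and the call was lost (adjusted p = 0.093). The third, 1447745_at, gave 12.3 on every TRAP array and 19.7 on every unbound array and was not tested.

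Mlc1 encodes a membrane protein of astrocyte junctions at the endfeet, mutated in a human leukodystrophy with cysts. Its single probe set, 1448139_at, measured 38.9, 143 and 101 in TRAP RNA and 481, 954 and 1034 in unbound RNA. The groups did not overlap, and replicate 1 was the lowest in both. The log2 difference was -3.24 (SE 0.59, adjusted p = 0.0060), a 9.46-fold lower value. Its SE was more than those of Gfap and Aqp4, and it missed a limma test against a 2-fold change (adjusted p = 0.052), which 9.49% of all tested probe sets passed in the lower and 3.82% in the higher direction. Without replicate 3 of both groups the call was lost (adjusted p = 0.078), with a log2 difference of -3.19.

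Slc1a2 encodes GLT-1, the transporter that clears most glutamate in forebrain. The brightest of its probe sets, 1438194_at, measured 2561, 2640 and 2906 in TRAP RNA and 6263, 8669 and 9134 in unbound RNA. The TRAP arrays were close to each other and all below the unbound arrays, yet the gene stayed bright in both groups. The log2 difference was -1.55 (SE 0.16, adjusted p = 7.4e-04), a 2.93-fold lower value that missed the test against a 2-fold change (adjusted p = 0.070).

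Among the other Slc1a2 probe sets, 1451627_a_at gave 42.5 on each TRAP array and 75.6, 160 and 155 on the unbound arrays. Its log2 difference of -1.54 (SE 0.32, adjusted p = 0.0092) was close to that of the brightest probe set, but the call was lost without replicate 2 or replicate 3 of both groups (adjusted p = 0.095 and 0.11). The probe set 1439940_at spread widely, with 412, 109 and 584 in TRAP RNA and 437, 489 and 2025 in unbound RNA. Its groups overlapped and it was not called (log2 -1.35, SE 0.92, adjusted p = 0.24). Both remaining probe sets, 1433094_at and 1459014_at, stayed under 25 on every array and were not tested.

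Slc1a3 encodes GLAST, the other glial glutamate transporter, which is also made by radial glia and Bergmann glia. Its brightest probe set, 1452031_at, measured 348, 641 and 456 in TRAP RNA and 599, 1015 and 1189 in unbound RNA. TRAP replicate 2 lay above unbound replicate 1, so the groups overlapped and the probe set was not called (log2 -0.94, SE 0.35, adjusted p = 0.063). Same-numbered arrays differed in the same direction in each of the 3 pairs, by log2 ratios of -0.78, -0.66 and -1.38. With the replicate number as a block it was called lower (adjusted p = 0.022), and so it was without unbound replicate 1 (0.028) or without replicate 1 of both groups (0.048). With the block 17 of the 22 member probe sets were lower and 2 higher, against 49.5% and 21.9% of all tested probe sets.

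The dimmer Slc1a3 probe sets were called without the block. The probe set 1426340_at measured 170, 209 and 161 in TRAP RNA and 314, 810 and 594 in unbound RNA (log2 -1.57, SE 0.38, adjusted p = 0.015). That call was lost without TRAP replicate 1, TRAP replicate 3 or unbound replicate 3 (adjusted p from 0.054 to 0.057), and without replicate 2 or 3 of both groups (adjusted p = 0.073 and 0.15). The probe set 1443749_x_at, of a type in which some probes can cross-hybridise, measured 63.2, 106 and 75.5 against 150, 269 and 211 (log2 -1.36, SE 0.30, adjusted p = 0.011). Without replicate 3 of both groups its adjusted p was 0.13. The other 3 Slc1a3 probe sets had means under 28 in both groups and were lower in TRAP RNA without overlap, by log2 differences of -0.21 to -0.71.

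Glul encodes glutamine synthetase, the enzyme that turns the glutamate taken up by these transporters into glutamine. Its probe sets went opposite ways. The brighter, 1426236_a_at, measured 10020, 11249 and 10020 in TRAP RNA and 11673, 11742 and 11742 in unbound RNA. It was 1.13-fold lower (log2 -0.17, SE 0.05, adjusted p = 0.040), a difference that turned to 0.26 when arrays were centred on their medians (adjusted p = 0.014). With the replicate block its call was lost (adjusted p = 0.059).

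The second Glul probe set, 1426235_a_at, measured 4207, 4379 and 4327 in TRAP RNA and 3027, 2474 and 3578 in unbound RNA. The groups did not overlap, and the probe set was 1.44-fold higher (log2 0.52, SE 0.14, adjusted p = 0.023). This call was lost without any 1 TRAP replicate or without unbound replicate 1 (adjusted p from 0.062 to 0.069), and without replicate 1 or 2 of both groups (0.15 and 0.072). For the probe set of highest mean, the call was lost without TRAP replicate 1 or 3 and without any 1 unbound replicate (adjusted p from 0.088 to 0.11), and without replicate 1 or 3 of both groups (0.20 and 0.22). Neither Glul probe set differed by 2-fold.

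**Figure D2:**
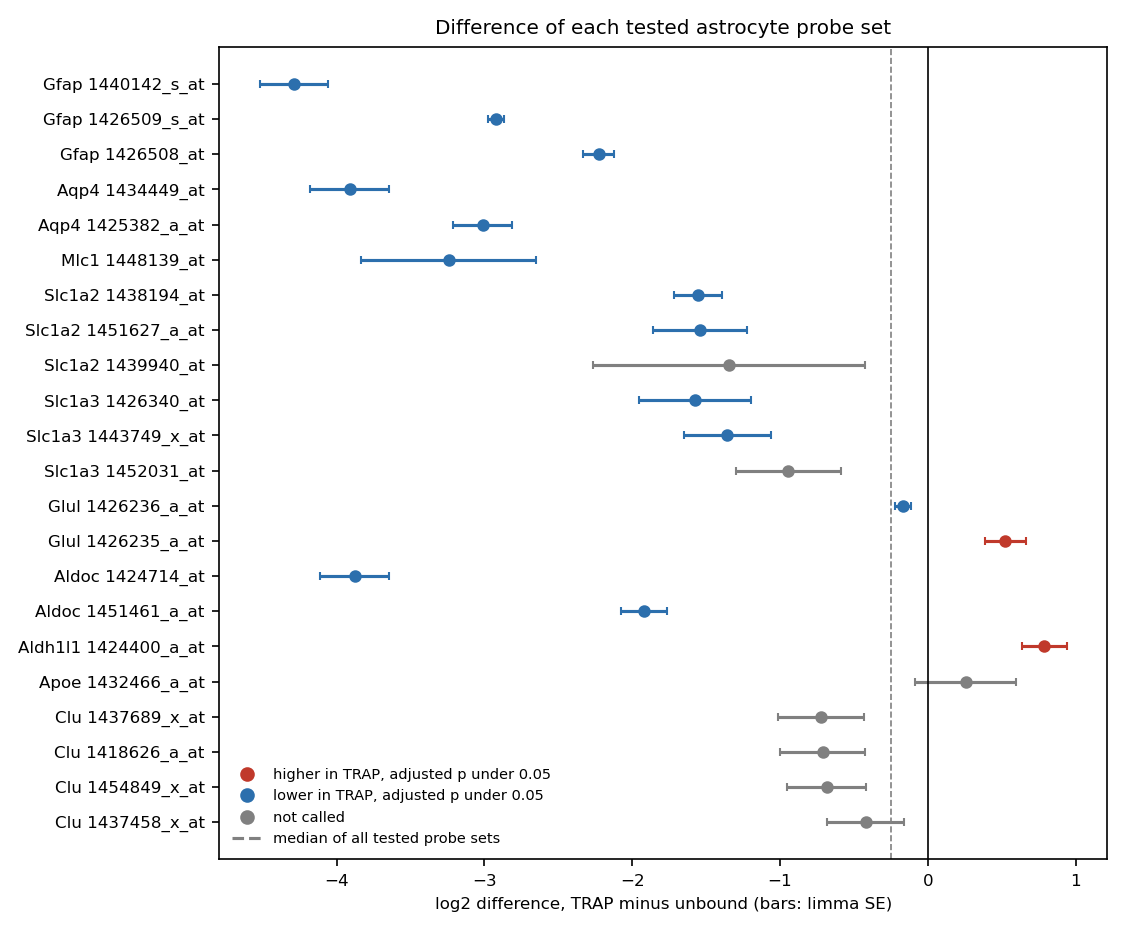
Log2 difference, TRAP minus unbound, of each of the 22 tested probe sets, with limma SE bars and gene and probe set down the page. Red points were called higher, blue points lower and grey points were not called, and the dashed line at -0.25 is the median of all tested probe sets. Probe sets of Gfap, Aqp4, Mlc1 and Aldoc lie farthest to the left. Those of Clu lie between -0.73 and -0.42, and those of Apoe and Glul between -0.17 and 0.52.

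Aldoc encodes aldolase C, the brain isoform of a glycolytic enzyme. Both of its probe sets fell. The brighter, 1451461_a_at, measured 3297, 4344 and 3091 in TRAP RNA and 13305, 12246 and 14789 in unbound RNA. Its log2 difference was -1.92 (SE 0.15, adjusted p = 2.8e-04), a 3.79-fold lower value. The other, 1424714_at, measured 63.8, 97.5 and 53.5 against 997, 1030 and 1030, a 14.7-fold lower value (log2 -3.88, SE 0.23, adjusted p = 9.6e-05). For neither probe set did the groups overlap, and a limma fit against a 2-fold threshold called both. The platform annotation gives both the same source accession, and the reason for their different sizes was not tested.

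Aldoa, the paralogue encoding the aldolase of muscle and most other tissues, was not called. It measured 24176, 24459.5 and 21438 in TRAP RNA and 19867, 22830 and 25155 in unbound RNA (log2 0.05, SE 0.11, adjusted p = 0.69). Among 13 tested glycolysis enzymes other than Aldoc, 8 fell and 1 rose, against 45.6% and 23.2% of all genes. The median log2 difference was -0.22. The differences furthest below 0 were those of the hexokinase genes Hk2 and Hk1, at -0.47 and -0.41, and of the phosphofructokinase gene Pfkm, at -0.41. Ldha, which encodes a lactate dehydrogenase subunit, was higher at 0.14.

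Aldh1l1 encodes a cytosolic folate enzyme, 10-formyltetrahydrofolate dehydrogenase, which is used as a broad astrocyte marker. It rose in TRAP RNA. The probe set 1424400_a_at measured 1423, 1184 and 1264 in TRAP RNA and 611, 787 and 859 in unbound RNA. Every TRAP array was above every unbound array, and the log2 difference was 0.79 (SE 0.15, adjusted p = 0.0070), a 1.73-fold higher value. Of all tested probe sets, 91.3% had a lower difference. The gene was called in each fit that left out 1 array, and the call was lost without replicate 2 of both groups (log2 0.89, adjusted p = 0.057). The same-numbered ratio was largest for replicate 1, at a log2 of 1.22, against 0.59 and 0.56 for replicates 2 and 3.

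The second Aldh1l1 probe set, 1424401_at, was near background with 15.4, 15.7 and 15.9 in TRAP RNA and 12.6 on each unbound array, and was not tested. Its mitochondrial paralogue Aldh1l2 was lower, at 32.1 ± 5.44 in TRAP RNA and 53.2 ± 0.639 in unbound RNA (SD, n = 3 each, log2 -0.74, SE 0.13, adjusted p = 0.0046). Of 8 tested folate and one-carbon enzymes, 4 fell and 1 rose, against 45.6% and 23.2% of all genes, and the median was -0.44. Gldc, the glycine decarboxylase of the glycine cleavage system, was 4.63-fold lower. The serine hydroxymethyltransferase genes differed in sign, with Shmt1 higher at 61.5 on each TRAP array against 43.2 on each unbound array, and Shmt2 lower. Aldh1l2 had a TRAP mean and Shmt1 an unbound mean under 50, so both had to differ to be tested.

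Apoe, the main lipoprotein of brain, was not called. Its probe set 1432466_a_at measured 5074, 6845 and 5885 in TRAP RNA and 3033, 5880 and 6740 in unbound RNA. The groups overlapped (log2 0.26, SE 0.34, adjusted p = 0.53). Same-numbered arrays did not share a direction, with log2 ratios of 0.74, 0.22 and -0.20. The positive sign rested on unbound replicate 1, without which the log2 difference was -0.10.

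Clu, encoding clusterin, was not called by any of its 4 probe sets, although each had a lower mean in TRAP RNA. The brightest, 1437689_x_at, measured 7265, 11650 and 10458 in TRAP RNA and 11359, 17402 and 20235 in unbound RNA (log2 -0.73, SE 0.29, adjusted p = 0.077). The 4 log2 differences ranged from -0.42 to -0.73 with adjusted p from 0.073 to 0.21. Replicate 1 was the lowest array in both groups for all 4 probe sets. With the replicate block all 4 were called lower, with adjusted p from 0.0054 to 0.040, since the TRAP array was below the same-numbered unbound array in every pair. Without unbound replicate 1, 3 of the 4 were called (adjusted p from 0.028 to 0.038). After centring the differences were between -0.29 and 0.01, so the direction of 1437458_x_at was not kept.

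Markers of other cell types were read beside Apoe and Clu. For comparison, 45.6% of all genes were lower and 23.2% higher. Of 14 tested meningeal fibroblast markers, 13 were higher in TRAP RNA. Their summed intensities were 42617 to 47920 in TRAP RNA and 2039 to 2454 in unbound RNA. Some of them, such as Lum and Col1a2, had unbound means under 50 and had to differ to be tested. Of 4 tested border macrophage markers 1 was higher and 3 were lower, with sums of 195 to 217 in TRAP RNA and 216 to 235 in unbound RNA. Choroid plexus and ependymal genes gave 3 higher and 1 lower of 5 tested, with sums of 1122 to 1387 in TRAP RNA and 299.5 to 3108 in unbound RNA. Ttr, the main transcript of choroid plexus, was not called (adjusted p = 0.23). It measured between 35.04 and 175 in TRAP RNA, the highest in replicate 3, and 159, 76.3 and 2886 in unbound RNA. The called genes were Kcnj13, Ccdc153 and Kl, higher by 15.2-fold, 4.49-fold and 2.66-fold, and Clic6, 1.34-fold lower. Kcnj13 and Kl had unbound means under 50 and had to differ to be tested. Mural cell genes gave 5 higher and 1 lower of 7, and endothelial genes 2 higher and 1 lower of 5. The array highest in Ttr was replicate 3 in both groups. Clu was highest in replicate 3 of the unbound group for all 4 probe sets, and in replicate 2 of the TRAP group for 3 of the 4. The part of these cells in the values of Apoe, Clu and the other members was not tested.

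**Figure D3:**
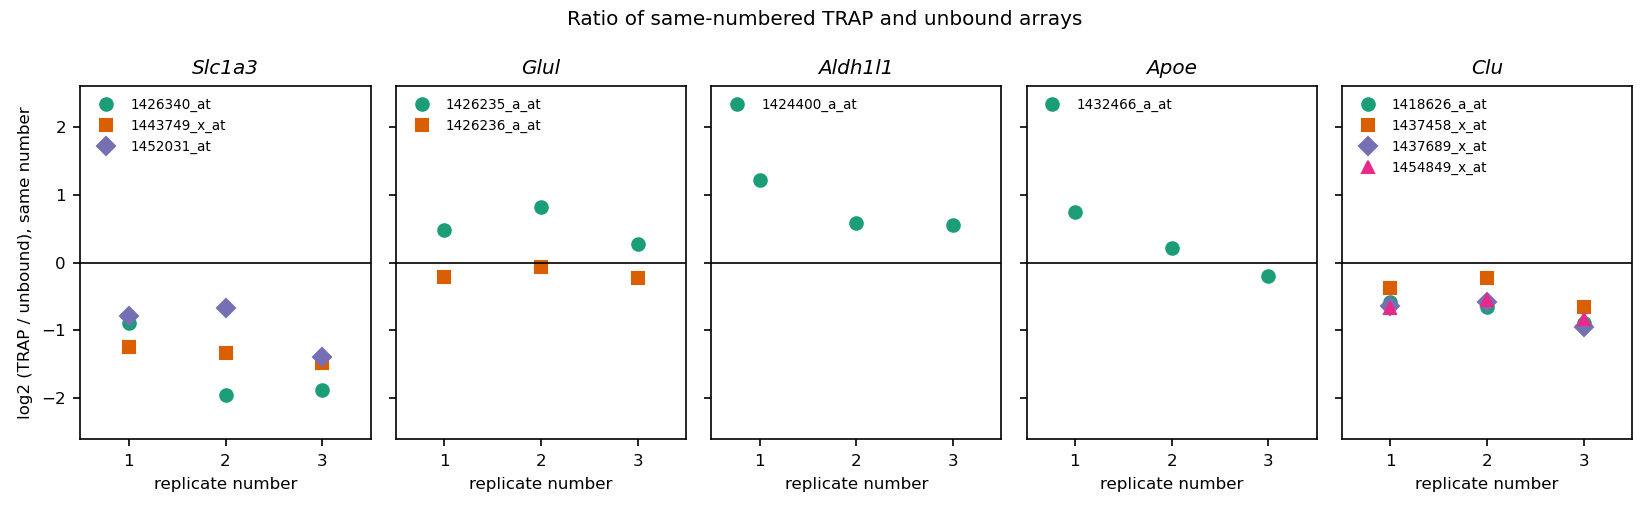
Log2 ratio of the TRAP array to the unbound array of the same replicate number, for the tested probe sets of Slc1a3, Glul, Aldh1l1, Apoe and Clu (1 marker per probe set). Clu and Slc1a3 lie below 0 at each number, Aldh1l1 lies above it, the Glul probe sets lie on opposite sides and Apoe crosses it.

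Replicate 1 was low for the astrocyte genes in both groups. It was the single lowest unbound array for 17 of the 22 tested probe sets, against 20.7% of all tested probe sets. It was the single lowest TRAP array for 12 of the 22, against 24.0% of all, and the lowest in both groups for 10, against 10.4% of all. Probe sets of 1 gene share their transcript, so these counts do not stand for that many independent genes. The ratio of same-numbered arrays was below 0 on the log2 scale in all 3 pairs for 19 of the 22 probe sets and above 0 in all 3 for 2, leaving Apoe between them.

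Other astrocyte genes were set beside the members. Of 29 tested genes on a list of further astrocyte identity genes, 22 were lower, 2 were higher and 5 were not called, with a median log2 difference of -1.98. Over all genes 45.6% were lower, with a median of -0.21. Among the 22, Slc7a10, Cldn10, Grin2c, Phkg1 and Plcd4 had TRAP means under 50. They were tested only because of their unbound level and had to differ. Gpr37l1, an orphan receptor, was 13.7-fold lower, the endothelin receptor gene Ednrb 10.9-fold lower and the zinc transporter gene Slc39a12 9.999-fold lower. In TRAP RNA Ednrb measured 25.2, 118 and 71.1 (log2 SE 0.64, adjusted p = 0.0061). Slc39a12 measured 28.0, 89.8 and 44.9 there (log2 SE 0.53, adjusted p = 0.0036). Some of these values lie under 50, so neither of these folds is firm. The higher genes were Gjb6, which encodes connexin 30, at 5.75-fold (adjusted p = 6.3e-04), and S100b, a calcium-binding protein gene, at 1.22-fold (adjusted p = 0.020). Gja1, which encodes the partner connexin 43, measured 6594 ± 1545 in TRAP RNA and 6623 ± 1731 in unbound RNA (SD, n = 3 each) and was not called (log2 0.00, adjusted p = 1).

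Of 7 tested endfoot, potassium and volume genes, 4 fell and 1 rose, where 45.6% of all genes were lower and 23.2% higher, and the median log2 difference was -0.91. The potassium channel gene Kcnj10 was 5.36-fold lower, Hepacam, the adhesion partner of Mlc1, 4.70-fold lower and the bicarbonate cotransporter gene Slc4a4 2.94-fold lower. The chloride channel gene Clcn2 was 1.77-fold higher.

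The list of glutamate and glutamine handling, other than the members, was mixed. Of 12 tested genes 7 fell and 3 rose, against 45.6% and 23.2% of all genes, and the median was -0.30. Slc7a11, the cystine and glutamate exchanger, rose to 332 ± 164 in TRAP RNA, against 29.1 ± 3.32 in unbound RNA (SD, n = 3 each, log2 3.36, adjusted p = 0.0021). Slc1a5, a neutral amino acid transporter gene of the same family as Slc1a2, rose to 84.7 ± 14.5 in TRAP RNA, against 14.6 on each unbound array, a level near background. Slc7a11 and Slc1a5 had unbound means under 50, were tested only because of their TRAP level and had to differ. The glutamine transporter gene Slc38a2 was 1.75-fold higher. Slc1a1, the neuronal glutamate transporter, was 2.55-fold lower, Slc1a4, another neutral amino acid transporter gene of this family, 2.50-fold lower and Glud1, glutamate dehydrogenase, 2.40-fold lower.

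Genes that load or receive lipoproteins showed a similar mixture. Of 13 tested, 9 fell and 2 rose, against 45.6% and 23.2% of all genes, and the median was -0.68. Lpl, lipoprotein lipase, was 4.86-fold lower, and the Apoe receptor gene Lrp8 3.06-fold lower. Lcat, which esterifies cholesterol in these particles, fell to 28.0 ± 0.268 in TRAP RNA, a level near background, against 122 ± 28.8 in unbound RNA (SD, n = 3 each). Lcat was tested only because of its unbound level and had to differ. The higher genes were Apod, another apolipoprotein, at 7.23-fold and Pltp, a phospholipid transfer protein, at 6.23-fold.

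Among 21 tested glial transcription regulators 14 fell and 3 rose, against 45.6% and 23.2% of all genes, and the median was -0.73. Rfx4 was 4.73-fold lower. Pax6 and Emx2 were lower with every TRAP array under 50, and their unbound means were 112 ± 11.7 and 172 ± 36.9 (SD, n = 3 each). Both were tested only because of their unbound level and had to differ. Id1 and Id3, inhibitors of helix-loop-helix factors, were 7.26-fold and 3.44-fold higher. Nfix, of the nuclear factor I family, was 1.12-fold higher.

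The list of reactive astrocyte genes, to which Gfap is often added, went the other way from Gfap. Of 10 tested genes 7 rose and 3 fell, against 23.2% and 45.6% of all genes, and the median was 0.96. Hspb1, a small heat shock protein gene, was 12.6-fold higher, Vim, the vimentin gene whose protein assembles with Gfap protein in astrocytes, 8.03-fold higher. The protease inhibitor gene Timp1 rose to 81.8 ± 11.7 in TRAP RNA, against 16.4 ± 1.04 in unbound RNA (SD, n = 3 each), the unbound level being near background. Serpina3n was 1.39-fold lower and the filament gene Synm 1.32-fold lower, and Cd44, a hyaluronan receptor gene, fell to 31.9 ± 3.66 in TRAP RNA, against 54.0 ± 8.74 in unbound RNA. Timp1 and Cxcl10, another gene of the list that rose, had unbound means under 50, and Cd44 had a TRAP mean under 50. Timp1, Cxcl10 and Cd44 thus had to differ to be tested. Vim and Timp1 are also expressed by fibroblasts and vascular cells, whose markers are given above, and their part in these values was not tested. Of 10 tested microglia markers 9 were lower (median -2.03), and of 11 tested oligodendrocyte markers 10 were lower (median -3.03). Other glial genes were thus lower on the same arrays. Several of them, among them P2ry12, Cx3cr1 and Gpr34 of microglia and Myrf of oligodendrocytes, had TRAP means under 50. Such genes were tested only because of their unbound level and had to differ. Of 6 oligodendrocyte precursor markers 5 fell, and of 12 interneuron markers 9 fell. Of 12 pan-neuronal markers 7 fell and 1 rose, and of 12 pyramidal neuron markers 5 fell and 5 rose. The shares over all genes were 45.6% lower and 23.2% higher.

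**Figure D4:**
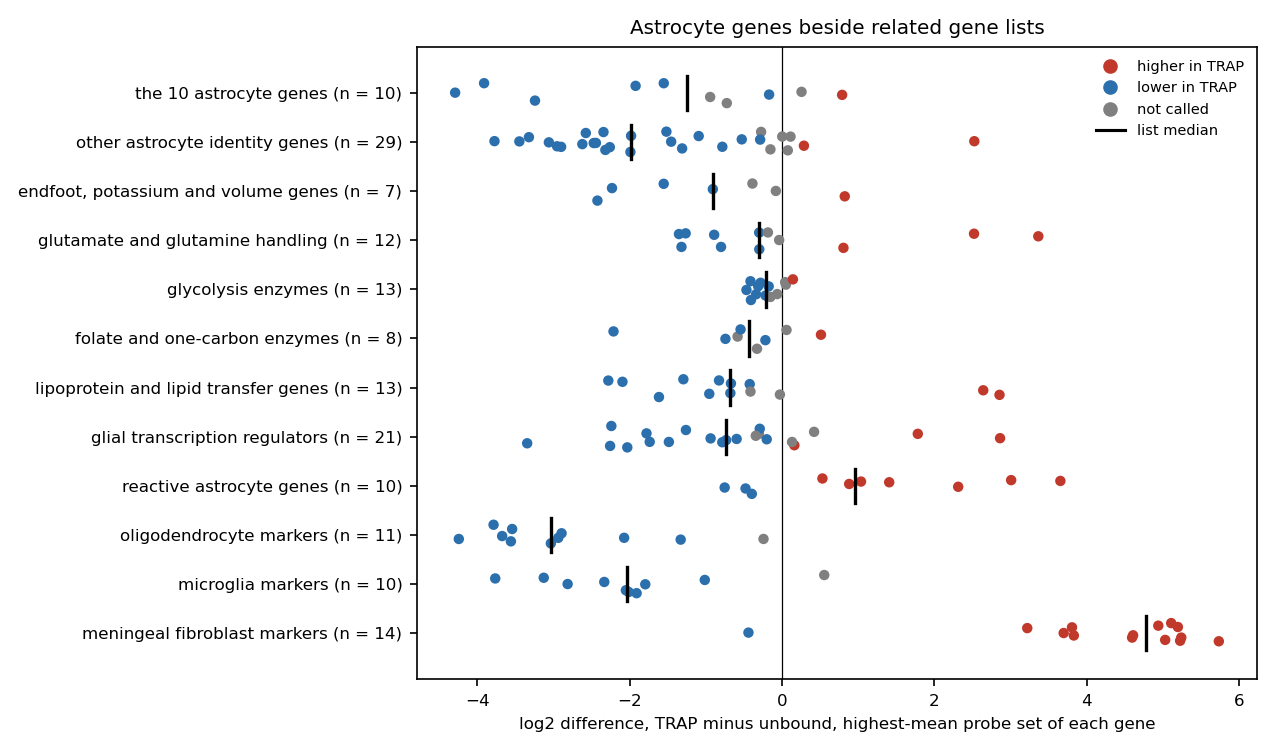
Log2 difference, TRAP minus unbound, of the highest-mean probe set of each tested gene in the 10 astrocyte genes and 11 related lists, with black bars at list medians. Red is higher, blue lower and grey not called. The further astrocyte identity genes centre at -1.98, the reactive astrocyte genes at 0.96 and the meningeal fibroblast markers at 4.77.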

How the data were processed

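RNA of 3 TRAP and 3 unbound samples was amplified in 2 cycles from a fixed mass and hybridised to Affymetrix arrays, per the labels' protocols, so RNA per cell is not measured. The authors deposited linear intensities, normalised with GCRMA, per the submitters' processing notes. Its version, and whether both groups went through 1 run, are not stated there. No column was left unused.

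Control probe sets (64) were removed, and the platform annotation gave the gene symbols. Log2 intensities, without a pseudocount, were fitted by lmFit and eBayes (limma 3.58.1, R 4.3.3, two-sided, no term but group) for 22591 probe sets with a group mean of at least 50. P-values were adjusted by the Benjamini-Hochberg method over all of them, with a threshold of 0.05, which is the adjusted p printed unless another test is named. A probe set with a group mean under 50 was tested only because of its other group and had to differ. A fold is 2 to the power of the difference of mean log2 values. The fit was tested on simulated data.

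The 10 genes, the gene lists and the tests were chosen with earlier results of these data known. The named genes are all member probe sets, S100a10, the paralogues Aldoa and Aldh1l2, and up to 3 called genes per pathway list and direction with the largest difference and no overlap. Cell type marker lists are otherwise given by counts. Gja1 and Ttr were named after their values were seen. So were the called choroid plexus and ependymal genes and further list genes with a group mean under 50. Genes in lists are represented by the probe set of highest mean.

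Same-numbered TRAP and unbound arrays deviated together from their group means (r = 0.42, 0.45 and 0.37 across 22591 probe sets for replicates 1, 2 and 3). The titles call the number a biological replicate and do not state whether same-numbered arrays share animals. The main fit holds no replicate term. Same-numbered ratios are given because of this correlation. A fit with the replicate block is given where it changes a call. Alternatives covered the filter, a floor, 2 scalings, repeated values, the variance prior, a test against a 2-fold change and leaving out arrays.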

Additional observations from a re-analysis of the deposited data

How the results depend on the processing

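Of the 22 tested member probe sets, 7 kept direction and call status under each of the 19 alternatives that could be fitted to them. Among these 7 is 1439940_at of Slc1a2, which was not called in the main fit (adjusted p = 0.24) or in any alternative. Over all comparisons of a member with an alternative, 341 of 395 were unchanged, 34 lost a call, 17 gained one and 3 changed sign. A probe set that stayed without a call counts as unchanged. With both group means required to reach 50, 8 member probe sets were lower in place of 13, because 5 were no longer tested. The test against a 2-fold change called 7 lower and 0 higher, and by gene 3 lower and 0 higher. Centring arrays gave 2 higher genes in place of 1. Sign changed for 1426236_a_at of Glul (0.26) and 1437458_x_at of Clu (0.0130) after centring and for Apoe without unbound replicate 1 (-0.10, with a range of -0.10 to 0.48 over arrays left out). Fitted to probe sets without repeated values, 1452031_at of Slc1a3 and 3 probe sets of Clu gained a call (adjusted p from 0.029 to 0.041). With the replicate block 17 probe sets were lower and 2 higher, and by gene 7 and 1, and it changed no call of a member other than those given for Slc1a3, Glul and Clu.

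Leaving out 1 array gave 11 to 16 lower and 1 to 2 higher probe sets, and by gene 5 to 7 lower and 1 higher. Leaving out 1 replicate number from both groups, chosen after seeing the data, gave 8 to 16 lower and 0 to 2 higher, and by gene 4 to 7 and 0 to 1. Signal near background in 1 group limits the folds of Gfap, of 1425382_a_at of Aqp4 and of each gene with a group mean under 50. Exactly repeated values were found on pairs of arrays within a group (17.9% to 21.6% of tested probe sets) and on 0% between groups. Array medians also separated by group, at 31.4 to 31.8 for TRAP and 42.4 to 43.1 for unbound. Whether this reflects a separate GCRMA run for each group was not tested. The part of processing in the differences between groups, and in their p-values, was not tested either.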
